A study of Mus musculus with 18 samples.

Results

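The neutrophil chemokines and interleukin-1 (IL-1) cytokines of lung epithelium were followed through 18 RNA-sequencing libraries of mouse lung cultures. Chosen by name among the 46603 genes of the deposited tables were 10 genes, the CXC chemokines Cxcl1, Cxcl2, Cxcl3, Cxcl5 and Cxcl15, the CC chemokine Ccl20, the IL-1 genes Il1a, Il1b and Il1rn, and Lif. The cultures were organoids, grown in Matrigel from sorted cells, and tumoroids, grown from lung tumors. The sorted cells and the tumor cells came from mice with a human EGFR transgene carrying T790M and L858R. It was knocked into Col1a1 behind a lox-stop-lox cassette, so that it is silent until Cre removes the stop. The 10 pretransplant organoid libraries were from tracheal club cells (NGFR negative), tracheal basal cells (NGFR positive), alveolar type 2 (AT2) cells (Sca1 negative) and mixed bronchioalveolar stem cells (BASCs, Sca1 positive), each infected with the control virus Ad-GFP or with Ad-Cre. Ad-Cre cultures of BASCs that were separated by their shape into alveolar and bronchiolar organoids completed the set. The 8 tumoroid libraries all descended from cells exposed to Ad-Cre, before transplantation or in the lung itself. They comprised 3 AT2-derived, 3 mixed BASC-derived and 1 bronchiolar BASC-derived tumoroids from transplants into nude (Foxn1 mutant) mice, and 1 autochthonous tumoroid, made from a tumor that arose in place. Nude mice lack most T cells but have neutrophils. Each organoid condition was 1 library, so different cell populations and viruses take the place of replicates, and p values describe only the spread between these libraries. All cultures were grown with neonatal lung support cells, which the study describes as mesenchymal endothelial or as mesenchymal. Their RNA can be part of each library, and markers of fibroblasts and endothelial cells are given below. Fewer cells of a type and less RNA per cell cannot be told apart in such bulk samples.

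Neutrophils are drawn into the lung by CXC chemokines that bind the receptor Cxcr2. Mouse Cxcl1, Cxcl2, Cxcl3 and Cxcl5 belong to this group, and Cxcl15, also called lungkine, is a relative made largely by lung epithelium. Ccl20 acts through Ccr6 on dendritic cells and lymphocytes. Il1a encodes IL-1 alpha, an alarm cytokine stored in surface epithelia, Il1b its inducible relative, and Il1rn the receptor antagonist that competes with both for Il1r1. IL-1 signalling turns on NF-kB, and many neutrophil chemokine genes are targets of NF-kB. Lif is a cytokine of the IL-6 family that signals through Lifr, Il6st and STAT3.

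The 5 CXC members lie together on chromosome 5 of GRCm38 within 146579 bases, all on the plus strand. The cluster holds 7 protein-coding genes in the order Cxcl5, Ppbp, Pf4, Cxcl3, Cxcl15, Cxcl1 and Cxcl2, and the longest gap, of 88173 bases, separates Cxcl15 from Cxcl1. Il1a and Il1b are neighbours on the minus strand of chromosome 2, 54597 bases apart, and Il1rn lies elsewhere on the same chromosome. Promoter windows from RefSeq (GRCm38.p6) were matched for 9 of the 10 members. Those of 4 CXC members are shown because they are close neighbours with unlike levels in these cultures, and that of Il1a because it differed most between tumoroids. Each line gives the 120 bases before the gene, 5′ to 3′ in the direction of transcription, with letters in capitals where they match the NF-kB motif GGGNNNTTCC or the AP-1 motif TGANTCA on either strand.
Cxcl1 (chr5:90891121-90891240, plus strand): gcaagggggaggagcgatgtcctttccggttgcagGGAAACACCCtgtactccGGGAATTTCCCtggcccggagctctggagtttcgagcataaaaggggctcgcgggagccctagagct
Cxcl2 (chr5:90903751-90903870, plus strand): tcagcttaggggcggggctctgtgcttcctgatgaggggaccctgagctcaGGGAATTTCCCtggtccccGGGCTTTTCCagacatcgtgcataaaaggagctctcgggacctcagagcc
Cxcl3 (chr5:90785981-90786100, plus strand): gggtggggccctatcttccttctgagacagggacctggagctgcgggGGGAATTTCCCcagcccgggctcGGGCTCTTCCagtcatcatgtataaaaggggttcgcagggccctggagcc
Cxcl15 (chr5:90794414-90794533, plus strand): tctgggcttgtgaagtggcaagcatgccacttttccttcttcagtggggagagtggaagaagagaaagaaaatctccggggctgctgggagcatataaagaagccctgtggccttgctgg
Il1a (chr2:129309973-129310092, minus strand): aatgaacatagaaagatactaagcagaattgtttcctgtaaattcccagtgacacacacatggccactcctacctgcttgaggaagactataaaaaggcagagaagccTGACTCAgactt

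Cxcl1, Cxcl2 and Cxcl3 each had 3 matches to the NF-kB motif in the 250 bases before the RefSeq start, of which 2 overlap on opposite strands in a single run of letters, and the Cxcl15 window had 0. That run spans positions -71 to -61 in Cxcl1, -97 to -87 in Cxcl2 and -73 to -63 in Cxcl3, counted from the RefSeq start. The printed Cxcl1 and Cxcl2 lines leave out the last 4 and 28 bases before that start, which GENCODE places inside the gene. In these 2 lines the run therefore lies nearer the end than its positions say. The Ccl20 window held 1 match, as did 1 of the 3 Il1rn windows, while the windows of Il1a, Il1b and Lif held 0. Among 32851 mouse promoter windows of the same length, 4.65% held the motif. The AP-1 motif was found in 6.75% of them and, among the members, in the windows of Il1a and Lif and in 1 of the 3 of Il1rn. A match is a run of letters and not a site shown to be bound.

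Levels of different genes were compared in TPM, the length-scaled share of transcripts that RSEM gives. Cxcl15 was the most abundant CXC member in all 3 alveolar organoid cultures, in which it took from 86.4% to 95.2% of the summed TPM of the 5 CXC members. In the 5 airway cultures (4 tracheal and 1 bronchiolar BASC) its share was 18% to 34.5%, and Cxcl5 led with 47.2% to 64%. The mixed BASC cultures, which hold organoids of both shapes, lay near the airway cultures with Cxcl15 shares of 30.1% and 31.4%. Without Cxcl15 the summed TPM of the other 4 CXC members was 314 to 751 in airway and 212 to 1200 in alveolar cultures, so these ranges overlapped. Il1b was close to absent everywhere. It had at most 12 counts in any library, in the mixed BASC Ad-GFP culture, and 0 counts in 7 of 18 libraries, and it did not pass the filter on low counts in any comparison. The map of all members over all libraries shows this layout.

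**Figure D1:**
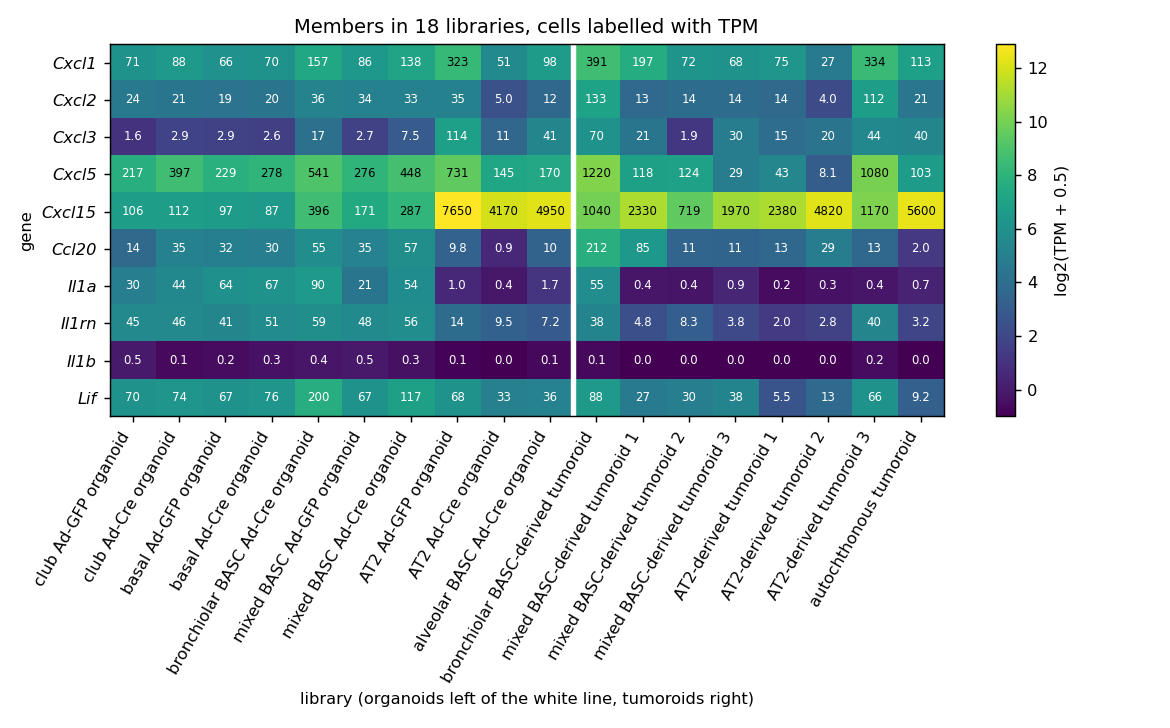
The 10 genes (rows) in the 18 libraries (columns), coloured by log2(TPM + 0.5) and labelled with the TPM itself. Il1a was 20.7 to 89.7 TPM in the airway and mixed BASC organoids and the bronchiolar tumoroid, and at most 1.71 TPM in the other 10 libraries.

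The balance of the IL-1 agonist and its antagonist followed the same division. The ratio of Il1rn to Il1a TPM was 0.646 to 1.49 in the 5 airway organoid cultures and 4.18 to 21.7 in the 3 alveolar ones. It was 0.685 in the bronchiolar tumoroid and 4.04 to 103 in the 6 AT2- and mixed BASC-derived tumoroids. The highest ratio, 103, belonged to AT2-derived tumoroid 3, where Il1a had 7 counts. Il1a had 5 to 25 counts in these 6 tumoroids, so their ratios rest on few counts and largely restate its low level. Both genes had lower TPM in the alveolar organoids than in the airway ones.

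Total expected counts were 27772660 to 97191624 in organoids and 15327265 to 23355938 in tumoroids. Among the leukocyte markers, Ptprc (CD45) was at no more than 2.3 CPM (counts scaled to a common library size), Tyrobp at no more than 0.182 CPM and Ly6g, a neutrophil marker, at no more than 0.353 CPM. The summed CPM of the 16 leukocyte markers was 497 to 618 in airway and 464 to 656 in alveolar organoids, made up largely of Cd14, Lcp1 and Cd68, and between 0 and 3 of the 16 were at 0. The AT2 markers summed to 46700 to 55500 CPM in alveolar and 732 to 3310 CPM in airway organoids, and the 9 basal markers to 669 to 1040 against 2110 to 6080 CPM. Icam1, 1 of the 9, went the other way, at 646 to 818 CPM in alveolar and 279 to 398 CPM in airway organoids. The basal sums did not set the basal cultures (5550 and 4880 CPM, Ad-GFP first) above the club cultures (6080 and 5900 CPM). Fibroblast markers were present in all cultures, at 1860 to 16000 CPM summed over 12 genes. Of the 9 endothelial markers, Cdh5 reached no more than 0.177 CPM and Emcn was at 0 in 16 of 18 libraries, while Esam, Eng and Flt1 were above 0 in all libraries, with Esam as high as 178 CPM. The human transgene was not analysed here because the annotation covers mouse genes.

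Airway organoids were first compared with alveolar organoids before transplantation, a contrast of culture type, since the bronchiolar and alveolar BASC cultures came from the same sorted cells and were separated by shape. Among the 9 members that passed the filter, Il1a, Il1rn and Ccl20 were higher in airway cultures, Cxcl15 and Cxcl3 were lower, and Cxcl1, Cxcl2, Cxcl5 and Lif did not pass the test. Of all 18362 genes tested with edgeR's quasi-likelihood test, 30.5% were called higher and 27.9% lower in airway cultures at a Benjamini-Hochberg adjusted p below 0.05. The 3 and 2 of 9 members are therefore near the shares of genes in general, and the median log2 fold change of the members was 0.25 beside 0.06 for all genes.

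Il1a showed the widest gap. Its level was 31.7 CPM in club Ad-GFP, 49.0 in club Ad-Cre, 71.7 in basal Ad-GFP, 72.2 in basal Ad-Cre and 96.5 in bronchiolar BASC Ad-Cre cultures, against 1.15 in AT2 Ad-GFP, 0.503 in AT2 Ad-Cre and 2.09 CPM in alveolar BASC Ad-Cre cultures. The groups did not overlap, and the lowest airway culture stood far above the highest alveolar one. The means were 64.2 ± 24.8 (SD, n = 5) and 1.25 ± 0.798 CPM (SD, n = 3), which is 5.69 on the log2 scale (SE 0.60, adjusted p = 0.000115).

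Il1rn, the antagonist, was also higher in airway cultures but by less. It ranged from 35.2 to 55.7 CPM in the 5 airway cultures and measured 12.2, 9.23 and 7.98 CPM in the AT2 Ad-GFP, AT2 Ad-Cre and alveolar BASC cultures. Airway and alveolar values did not overlap, and the spread within each group was small (45.8 ± 7.59, n = 5, and 9.81 ± 2.18, n = 3, SD). The log2 fold change was 2.18 (SE 0.19, adjusted p = 5.04e-05).

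Ccl20 was 5.43 CPM in club Ad-GFP, 14.6 in club Ad-Cre, 13.8 in basal Ad-GFP, 12.5 in basal Ad-Cre and 22.8 in bronchiolar BASC cultures. The alveolar values were 4.37 in AT2 Ad-GFP, 0.407 in AT2 Ad-Cre and 4.83 CPM in alveolar BASC cultures. The groups came close without overlapping, and the log2 fold change was 2.07 (SE 0.75, adjusted p = 0.0429). The call rests on the full set of libraries, since the adjusted p rose to between 0.0541 and 0.0726 on leaving out any of 6 of the 8 libraries (club Ad-Cre, either basal, AT2 Ad-GFP or either BASC culture) and to 0.0658 with virus as a covariate.

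Cxcl15 ran the other way. It was 9590 CPM in AT2 Ad-GFP, 5120 in AT2 Ad-Cre and 6520 in alveolar BASC cultures, while the 4 tracheal cultures held 102 to 134 CPM and the bronchiolar BASC culture 460 CPM. The groups did not overlap, and the bronchiolar BASC culture stood above the tracheal ones. The log2 fold change was -5.30 (SE 0.57, adjusted p = 0.000136), or 39.3-fold higher in alveolar cultures.

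Cxcl3 was 66.8 CPM in AT2 Ad-GFP, 25.1 in alveolar BASC and 6.62 in AT2 Ad-Cre cultures, and 0.844 to 1.66 CPM in the 4 tracheal cultures. The bronchiolar BASC culture, at 9.33 CPM, exceeded the AT2 Ad-Cre culture, so the groups overlapped. The log2 fold change was -3.50 (SE 0.91, adjusted p = 0.0109). Without the AT2 Ad-GFP culture it was -2.46 and did not pass (adjusted p = 0.0576).

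Airway and alveolar values of the remaining members overlapped. Cxcl1 was 35.8 to 83.4 CPM in airway cultures and 181, 29.3 and 58.7 CPM in AT2 Ad-GFP, AT2 Ad-Cre and alveolar BASC cultures (log2 fold change -0.94, SE 0.54, adjusted p = 0.162). It passed at -1.37 without the AT2 Ad-Cre culture (adjusted p = 0.0412) and at -1.47 with the 4 tracheal set against the 2 AT2 cultures (adjusted p = 0.0451), and stood at 0.08 without AT2 Ad-GFP. Cxcl2 was 11.4 to 24.8 CPM in airway cultures and 23.8, 3.66 and 9.22 CPM in the alveolar cultures in the same order (0.25, SE 0.53, adjusted p = 0.704). Cxcl5 was 181 to 464 CPM against 676, 132 and 165 CPM (-0.22, SE 0.55, adjusted p = 0.753), and Lif 130 to 397 CPM against 143, 66.7 and 81.8 CPM (0.93, SE 0.44, adjusted p = 0.102). In all 4 genes the AT2 Ad-GFP culture was the highest of the alveolar cultures and AT2 Ad-Cre the lowest.

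**Figure D2:**
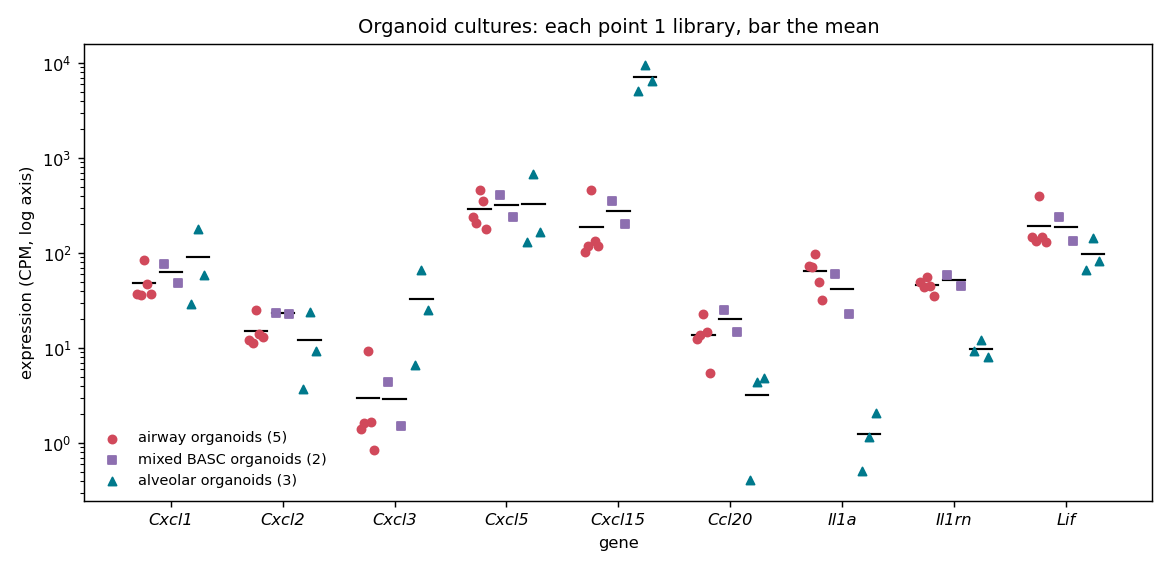
Expression in CPM (log axis) of 9 genes in the 5 airway, 2 mixed BASC and 3 alveolar organoid cultures, each point 1 library and each bar a group mean. Il1a and Il1rn separate the airway and mixed BASC cultures from the alveolar ones, Cxcl15 separates them in the opposite direction, and Cxcl1, Cxcl2, Cxcl5 and Lif overlap.

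The calls of Il1a, Il1rn and Cxcl15 held in all 16 alternative settings, which include a two-sided exact permutation test on log2 CPM (p = 0.0179 for each, the smallest it can give with 5 and 3 libraries). The 5 airway libraries came from 3 sorted populations and the 3 alveolar ones from 2, and some markers of other cells also differed between them. Fibroblast markers were lower in airway cultures for 10 of 12 genes, beside 27.9% of all genes, with sums of 4150 to 10000 CPM against 8460 to 13100 CPM.

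Of the 9 endothelial markers, 5 were tested, of which 3 were lower and 1 higher in airway cultures (all genes, 27.9% and 30.5%). Esam, an endothelial adhesion molecule, was 0.277 to 5.41 CPM in airway and 106 to 155 CPM in alveolar cultures (log2 fold change -6.53, adjusted p = 0.000855). Eng was 5.79 to 10.2 against 31.1 to 40.3 CPM. Flt1 went the other way, at 6.92 to 29.3 against 4.28 to 4.49 CPM. Pecam1, Cdh5, Kdr, Tie1, Tek and Emcn reached no more than 0.824 CPM in either group. The 9 markers summed to 14.7 to 45.8 against 152 to 201 CPM, and the alveolar sums were largely Esam and Eng. Of the 16 leukocyte markers, 10 were tested, of which 3 were higher and 5 lower in airway cultures (all genes, 30.5% and 27.9%), the former near the share of genes in general. Itgam, an integrin of myeloid cells, was 9.64 ± 4.48 against 0.48 ± 0.34 CPM (4.34, adjusted p = 0.00057) and the lysosomal gene Cd68 51.8 ± 19.1 against 14.5 ± 0.161 CPM (1.80, adjusted p = 0.00392), and the actin-bundling gene Lcp1 was lower, at 80.2 ± 35.8 against 425 ± 46.5 CPM (-2.45, adjusted p = 0.000222). The part of these cells in the member values, Il1a and the cytokine Tnf described further on included, was not tested.

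Along the chromosome 5 cluster, neighbours differed in opposite directions. Ppbp, which encodes a CXC chemokine best known from platelets, was 24.5 to 51.1 CPM in airway and 0.0964 to 0.238 CPM in alveolar cultures (log2 fold change 7.86, SE 0.41, adjusted p = 7.14e-06). Pf4, the next gene and also a platelet chemokine, was 0.0201 to 0.255 CPM in airway and 3.36 to 13.2 CPM in alveolar cultures (-6.21, SE 0.71, adjusted p = 0.000172). The gap between these genes is 2371 bases. Cxcl3 and Cxcl15 followed Pf4 with lower levels in airway cultures, and Cxcl5 at one end and Cxcl1 and Cxcl2 at the other did not pass. In the tumoroids Ppbp measured 88.6 CPM in the bronchiolar library and no more than 0.497 CPM in the 6 alveolar ones, while Pf4 at 2.86 CPM lay within their range of 1.57 to 29.9 CPM.

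**Figure D3:**
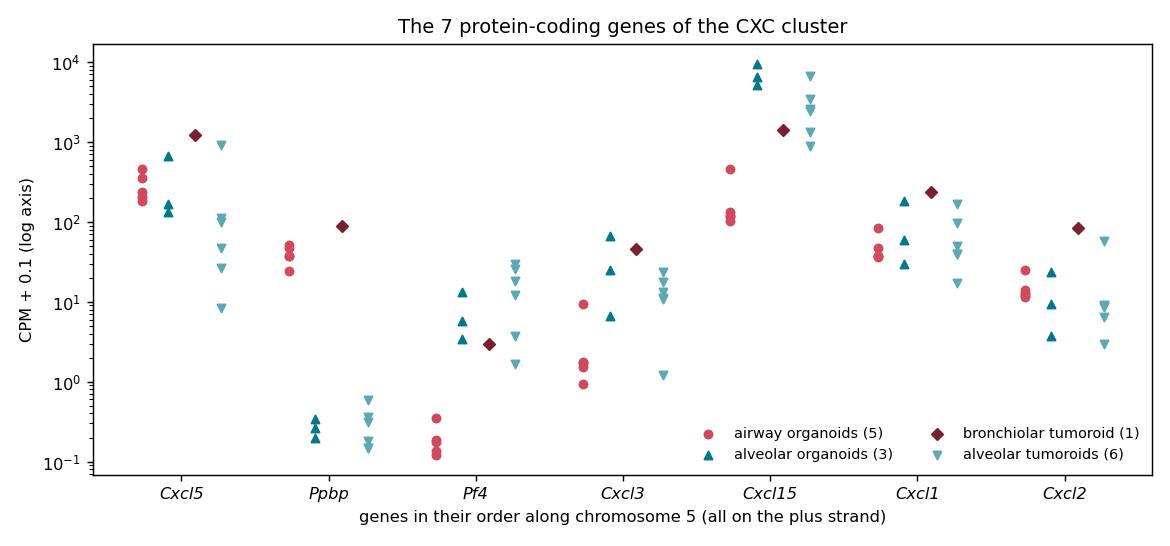
The 7 protein-coding genes of the cluster in chromosomal order, with CPM + 0.1 on a log axis for 5 airway organoid, 3 alveolar organoid, 1 bronchiolar tumoroid and 6 alveolar tumoroid libraries, each point 1 library. Ppbp is high in the airway and bronchiolar libraries, whereas Pf4, Cxcl3 and Cxcl15 are higher in alveolar than in airway organoids.

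The effect of activating the transgene was read from the 4 pairs of cultures in which the same sorted cells received Ad-GFP or Ad-Cre. None of the 9 members tested passed with the pair as a block, and 0 of 17749 genes (0%) did so in edgeR (350 at an unadjusted p below 0.05, and 5 called by DESeq2). The members' log2 changes averaged over the pairs lay between -0.54 (Cxcl2, SE 0.53) and 0.34 (Il1a, SE 0.38). The median over the members was -0.05 and over all genes -0.01.

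The pairs differed in direction. In the AT2 pair Cxcl3 was 66.8 CPM with Ad-GFP and 6.62 with Ad-Cre, Ccl20 4.37 and 0.407, Cxcl2 23.8 and 3.66, Cxcl1 181 and 29.3, and Cxcl5 676 and 132 CPM. The Ad-GFP value was 10-fold higher for Cxcl3, 9.7-fold for Ccl20, 6.42-fold for Cxcl2, 6.14-fold for Cxcl1 and 5.13-fold for Cxcl5. With Il1a (2.16-fold) and Lif (2.14-fold), 7 of the 10 members were at least 2-fold lower in the AT2 Ad-Cre culture, where 2.54% of all genes were. Il1rn (12.2 and 9.23 CPM) and Cxcl15 (9590 and 5120 CPM) were also lower with Ad-Cre, by less than 2-fold.

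In the mixed BASC pair the members were higher with Ad-Cre. Cxcl3 was 1.51 CPM with Ad-GFP and 4.36 CPM with Ad-Cre (2.82-fold), Il1a was 22.6 and 60.6 CPM (2.68-fold), and the other 7 members tested were 1.04- to 1.81-fold higher with Ad-Cre. In this pair 6% of all genes were at least 2-fold higher. In the club pair Ccl20 was 5.43 CPM with Ad-GFP and 14.6 CPM with Ad-Cre (2.67-fold), where 2.19% of genes were at least 2-fold higher. In the basal pair no member differed by 2-fold, the largest log2 change among the 9 being 0.22 for Cxcl5. Each of these values sets 1 library against 1 library and has no replicate check.

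**Figure D4:**
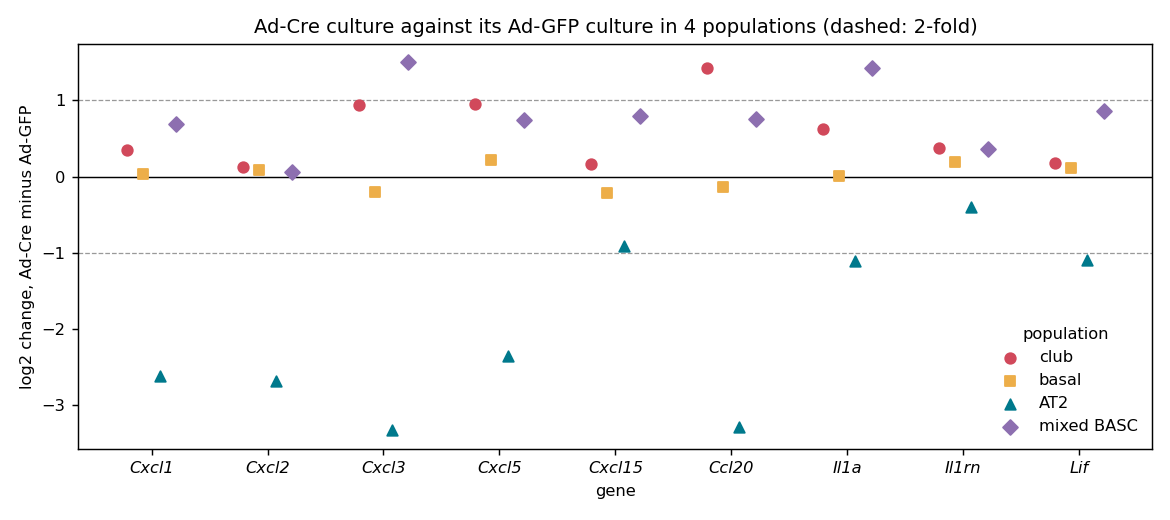
The log2 change in CPM from the Ad-GFP to the Ad-Cre culture for 9 genes in the club, basal, AT2 and mixed BASC pairs, with dashed lines at 2-fold. The AT2 pair lies below 0 for all 9 genes and the mixed BASC pair above 0 for all 9.

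Whether the Ad-Cre response differed between distal and tracheal cells was tested as an interaction. No gene of 17749 passed (0%, 852 at an unadjusted p below 0.05, and 146 called by DESeq2), and 0 of 9 members did. The distal estimate averaged the AT2 and mixed BASC pairs, which differed in direction. Without the mixed BASC pair, so that the AT2 pair alone was set against the 2 tracheal pairs, 323 of 17643 genes (1.83%) and 6 of 9 members passed, all 6 lower in the AT2 pair. These were Ccl20 (-4.02, SE 0.59, adjusted p = 0.00659), Cxcl3 (-3.60, adjusted p = 0.000731), Cxcl5 (-2.96, adjusted p = 0.000362), Cxcl2 (-2.82, adjusted p = 0.000314), Cxcl1 (-2.82, adjusted p = 7.47e-05) and Lif (-1.25, adjusted p = 0.00806). Without the AT2 pair, 1562 of 17630 genes (8.86%) and 3 members passed, all 3 with the larger response in mixed BASCs, namely Il1a (1.13, adjusted p = 0.0199), Cxcl15 (0.84, adjusted p = 0.0354) and Lif (0.73, adjusted p = 0.0431). In both reduced fits the spread was estimated from the tracheal pairs only, and the single distal pair was taken to vary like them. Fibroblast markers summed to 12600 and 13100 CPM in the AT2 pair and to 3690 and 9360 CPM in the mixed BASC pair (Ad-GFP first). In the mixed BASC pair the ciliated markers summed to 2380 CPM with Ad-GFP and 714 CPM with Ad-Cre, the club and secretory markers to 15700 and 11600 CPM and the AT2 markers to 1380 and 3410 CPM, and in the AT2 pair the AT2 markers summed to 55500 and 46700 CPM. The part of these shifts in the member values was not tested.

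The bronchiolar tumoroid was then set beside the 6 alveolar tumoroids, the 3 AT2-derived and 3 mixed BASC-derived ones. AT2 markers summed to 7340 CPM in the former and 18000 to 93500 CPM in the latter, and club and secretory markers to 10200 against 230 to 2110 CPM. Neither side was pure, since bronchiolar Sftpb (4060 CPM) lay inside the alveolar range of 3540 to 16000 CPM, and Bpifa1 reached 1190 CPM in an alveolar tumoroid. The bronchiolar tumoroid lay above all 6 alveolar ones and at least 2-fold above their mean for 8 of the 9 members that passed the filter, and below them for none. By this rule 9.93% of 17678 genes were higher and 9.2% lower in the bronchiolar tumoroid. The median log2 difference was 3.01 over the members and 0.03 over all genes. The bronchiolar side is 1 library, so these calls have no replicate check. With 1 library on a side, a gene can pass the filter on the counts of that library alone. Il1a had 1557 counts in the bronchiolar tumoroid and 5 to 25 in the alveolar ones. Of the 16 leukocyte markers, 11 were tested, of which 3 were called higher and 2 lower, with a median log2 difference of -0.01. Cd14 (431 against 62.5 ± 32.8 CPM, SD, n = 6) and Csf1r, a macrophage receptor (9.48 against 2.36 ± 2.03 CPM), were higher. In the bronchiolar tumoroid 6 of the 16 were at 0. Of the 9 endothelial markers, 6 were tested, of which 0 were called higher and 2 lower. Esam was lower (9.44 against 90.5 ± 47.6 CPM), while Flt1, at 59.3 CPM, lay inside the alveolar range of 0.828 to 78.9 CPM. The part of these cells in the member values was not tested.

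Il1a was again the widest difference, at 69.6 CPM in the bronchiolar tumoroid and 0.243, 0.378 and 0.435 CPM in AT2-derived tumoroids 1 to 3 and 0.397, 0.413 and 1.06 CPM in mixed BASC-derived tumoroids 1 to 3. The log2 difference in CPM was 7.15. The bronchiolar BASC organoid culture had 96.5 CPM and the alveolar organoid cultures at most 2.09 CPM. Organoids and tumoroids were sequenced on different platforms, which cannot be told apart from transplantation.

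Among the chemokines, Cxcl5 was 1230 CPM in the bronchiolar tumoroid, where the alveolar tumoroids ranged from 8.27 to 918 CPM with a median of 72.5 CPM (log2 difference 4.16). Ccl20 was 103 CPM against 4.71 to 34.2 CPM (3.59), and Cxcl2 84.3 CPM against 2.84 to 56.9 CPM (3.15). Cxcl3 measured 46.0 CPM against 1.11 to 23.8 CPM (2.26), and Cxcl1 237 CPM against 17.3 to 168 CPM (2.16). Il1rn was 45.1 CPM against 1.75 to 33.6 CPM (3.01), and Lif 207 CPM against 13.1 to 126 CPM (2.18). Cxcl15 at 1420 CPM lay inside the alveolar range of 884 to 6680 CPM (-0.74). Its share of the summed CXC TPM was 36.5% in the bronchiolar tumoroid and 42.7% to 98.8% in the alveolar ones.

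**Figure D5:**
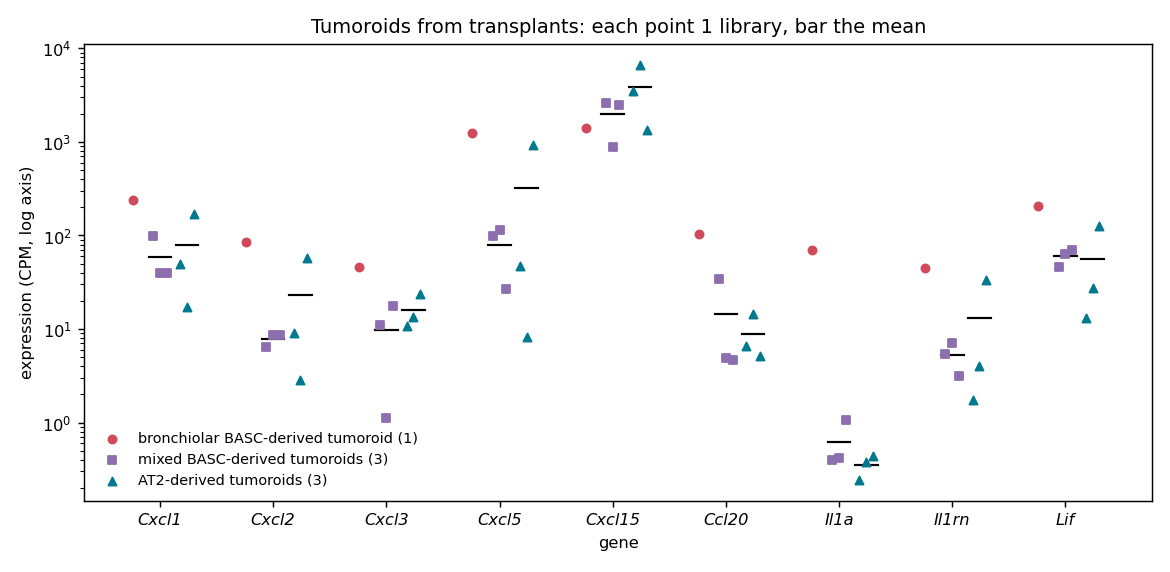
Expression in CPM (log axis) of 9 genes in the bronchiolar BASC-derived tumoroid and in 3 mixed BASC-derived and 3 AT2-derived tumoroids, each point 1 library and each bar a group mean. The bronchiolar point is the highest of the 7 for every gene shown except Cxcl15, and 1 AT2-derived point is close to it for Cxcl1, Cxcl2, Cxcl5, Il1rn and Lif.

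The close point is AT2-derived tumoroid 3, the highest of the 6 alveolar tumoroids for Cxcl1 (168 CPM), Cxcl2 (56.9), Cxcl3 (23.8), Cxcl5 (918), Il1rn (33.6) and Lif (126). It had the highest fibroblast marker sum of all libraries (16000 CPM, against 1860 to 8110 CPM in the other transplant tumoroids), the lowest sum of epithelial markers and Sox2 (825 CPM) and the lowest AT2 sum of the AT2-derived tumoroids (18000 CPM). Its Il1a, at 0.435 CPM, was not raised. Without it the bronchiolar tumoroid still exceeded the alveolar ones for 8 members. A fit in which the lone bronchiolar library was taken to vary like the alveolar ones gave Il1a a log2 fold change of 7.11. With 1 bronchiolar library that fit cannot check the spread on its side. With TPM in place of CPM, Il1rn fell inside the alveolar range (37.8 against a highest value of 40.1 TPM).

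No member passed between mixed BASC-derived and AT2-derived tumoroids. None of 15470 genes passed (0%, 144 at an unadjusted p below 0.05, and 7 called by DESeq2), 0 of the 8 members tested among them, and Il1a and Il1b were below the filter. The log2 fold changes ran from -2.08 for Cxcl5 (SE 1.55) to 0.70 for Ccl20 (SE 0.88). In simulated data with this design, 0% of 200 genes changed 4-fold and 79% of those changed 16-fold were recovered, so changes of the smaller size were not detectable here. Tumoroids whose labels share a number, among them the bronchiolar one and 2 of mixed BASC origin, may be tumors of a single mouse, which would leave fewer independent samples. The autochthonous tumoroid had 7250 CPM Cxcl15, the most of the 8 tumoroids, and 0.965 CPM Ccl20, the least.

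The chemokine receptors for these ligands were sparse in the cultures. Cxcr2 reached no more than 0.509 CPM in any of the 18 libraries, Cxcr1 no more than 0.0441 CPM and Ccr6 no more than 0.965 CPM. Il1r1, the signalling receptor of IL-1, was present in every library at 17.1 to 150 CPM, and its partner Il1rap at 6.43 to 71.7 CPM. Of 29 receptors and adaptors, 24 were tested between airway and alveolar organoids, of which 5 were higher and 10 lower in airway cultures, beside 30.5% and 27.9% of all genes. Lifr, the receptor of Lif, was lower in airway cultures (10.1 ± 3.27 against 51.8 ± 16.5 CPM, log2 fold change -2.40, adjusted p = 0.000156), as was Tlr4, the endotoxin receptor (-1.55, adjusted p = 3.68e-05). Il1rl2, the receptor of the IL-36 cytokines, was higher (2.18, adjusted p = 7.80e-05). In the bronchiolar tumoroid Lifr was 4.7 CPM, below the alveolar tumoroids (58.9 ± 29.0 CPM, n = 6), and Il1rl2 and Il18r1 were above them.

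NF-kB subunits and feedback genes were mostly higher in airway organoids. Of 22 tested, 17 were higher and 3 lower, where 30.5% of all genes were higher and 27.9% lower, with a median log2 fold change of 0.52 beside 0.06 for all genes. Tnfaip3, which encodes the feedback inhibitor A20, was 204 ± 54.6 CPM in airway and 39.8 ± 9.73 CPM in alveolar cultures (2.31, SE 0.25, adjusted p = 0.000127). Tnfaip2, a TNF-induced gene, differed by a similar amount (2.27, adjusted p = 8.36e-05), and Traf1, an adaptor, was lower in airway cultures (-2.67, adjusted p = 0.00674). In the bronchiolar tumoroid 9 of the 22 were above and 1 below the alveolar tumoroids (9.93% and 9.2% of all genes), with Tnfaip3 at 290 CPM against 29.9 ± 9.25 CPM and Nfkbie, an inhibitor of NF-kB, at 54.2 CPM against 8.7 ± 8.97 CPM (SD, n = 6). Icam1 is both in this list and among the basal markers.

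Other cytokines of the same setting included Tnf, at 17.3 ± 9.14 CPM in airway and 0.455 ± 0.285 CPM in alveolar organoids (log2 fold change 5.25, SE 0.61, adjusted p = 2e-04). Csf2, which encodes the growth factor GM-CSF, was 47.6 ± 44.8 against 4.62 ± 1.68 CPM (3.31, adjusted p = 0.00516), and Il23a was also higher (4.06, adjusted p = 0.00151). Of 18 cytokines and growth factors, 14 were tested, 6 higher and 2 lower in airway cultures (all genes, 30.5% and 27.9%). In the bronchiolar tumoroid 6 of 14 were above the alveolar tumoroids and 0 below (all genes, 9.93% and 9.2%), with Tnf at 31.1 against 1.33 ± 1.35 CPM, Csf2 at 79.6 against 4.99 ± 3.28 CPM and Il11 at 32.1 against 2.38 ± 1.54 CPM (SD, n = 6).

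Of 15 other IL-1 family cytokines and genes for their processing, 10 were tested between airway and alveolar organoids, with 5 higher and 1 lower in airway cultures (all genes, 30.5% and 27.9%). Casp1, the protease that matures IL-1 beta, was 11.6 ± 3.29 against 0.837 ± 0.93 CPM (3.80, adjusted p = 0.0026), Pycard, its inflammasome adaptor, 20.9 ± 7.23 against 1.89 ± 0.517 CPM (3.43, adjusted p = 0.000259), and Serpinb1a, an inhibitor of neutrophil elastase, 104 ± 14.5 against 3.92 ± 2.33 CPM (4.70, adjusted p = 7.35e-05). In the bronchiolar tumoroid 2 of 10 were above (9.93% of all genes) and 1 below (9.2%). Above was Gsdmd, which encodes the pore-forming gasdermin D (66.5 against 21.8 ± 13.6 CPM), and below was Il33, an alarm cytokine (58.1 against 137 ± 62.1 CPM). Of 16 other chemokines, 15 were tested in the organoids, 8 higher and 5 lower in airway cultures, the latter close to the 27.9% of all genes that were lower (30.5% were higher). Cxcl12, the ligand of Cxcr4, was 11.4 ± 6.06 in airway and 252 ± 113 CPM in alveolar cultures (-4.52, adjusted p = 9.15e-05), and the bronchiolar tumoroid had 8.94 against 169 ± 180 CPM in alveolar tumoroids. Cxcl16 in the bronchiolar tumoroid was 323 against 40.8 ± 7.27 CPM. Of 14 STAT3, C/EBP and AP-1 genes, 2 were higher and 2 lower in airway cultures, both below the shares of all genes (30.5% and 27.9%), Pim1 (1.06, adjusted p = 0.000105) and Fosl2 (0.59, adjusted p = 0.00452) among the first and the STAT3 feedback gene Socs3 (-0.82, adjusted p = 0.00154) among the second. No gene of these 6 lists passed in the Ad-Cre comparisons or between the AT2- and mixed BASC-derived tumoroids.

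Patterns most like those of the members were sought over the 18 libraries by Pearson correlation of log2 CPM among 14691 genes. These values describe libraries that fall into airway and alveolar sets and 2 platforms, and carry no test. Cxcl15 was most like Gm43085 (r = 0.992), an unverified transcript on the same strand that begins 193 bases past the end of Cxcl15, and then like Tmem243 and Adgrf5. Whether reads from an extended Cxcl15 transcript were counted for Gm43085 was not tested. Il1a was most like Tmprss11e (r = 0.983), Krt90 and Rad51ap2, and Il1rn like Capg (r = 0.977), Tnfaip2 and Cast. For Cxcl5 the nearest were Ifnar2 (r = 0.93), Map3k8 and Kcnk10, for Lif Csnk1g1 (r = 0.954), Ch25h and Pfkfb3, and for Ccl20 Gm10705 (r = 0.907), Vdac3 and Trmt6. Cxcl1 (Vnn1, r = 0.82), Cxcl2 (Gabarapl1, r = 0.869) and Cxcl3 (Chil1, r = 0.847) had weaker nearest genes. Among the members themselves Il1rn was closest to Lif (r = 0.89) and Cxcl2 to Cxcl5 (r = 0.85), while Cxcl15 ran opposite to Il1a (r = -0.79).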

How the data were processed

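RNA was sequenced from 18 libraries, 10 organoid (TruSeq, HiSeq) and 8 tumoroid (BGI, DNBSEQ). Per the study's methods and processing notes, the authors trimmed reads with Trimmomatic 0.39 and quantified them with STAR 2.6.1d and RSEM 1.3.2 on GRCm38. They deposited RSEM's expected counts, which are estimated read counts without normalization between libraries, and the authors also deposited TPM, scaled by transcript length. Of 46603 gene IDs, 46091 were matched to GENCODE M21 symbols and positions and 512 were not.

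The expected counts, rounded to whole numbers, were tested in R 4.3.3 with edgeR 4.0.16 (filterByExpr, TMM, quasi-likelihood test, Benjamini-Hochberg adjustment over all genes tested, threshold 0.05). CPM were computed over the 20104 genes that passed the filter in the 18 libraries, and log2 CPM with a prior count of 2. Because the bronchiolar tumoroid was a single library, a gene was called there when outside the range of the 6 alveolar tumoroids and at least 2-fold from their mean log2 CPM. Pairing of Ad-Cre with Ad-GFP cultures comes from the study's division of each sorted population into aliquots, so the pair was a block. The mixed BASC organoids stayed out of the airway comparison. AT2-derived tumoroids were placed by their AT2 origin, although their sorting label reads NGFR negative.

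The members and lists were chosen with earlier results of these data known. All 10 members are named, together with up to 3 called genes of each pathway list with the largest change and a mean of at least 1 CPM, and the 3 genes most correlated with each member. Alternatives were DESeq2 1.42.0, its size factors in edgeR, no filter, at least 10 counts in every library, each library or pair left out, other choices of cultures, covariates and blocks, TPM and a prior count of 0.5. In simulated data with 200 genes changed 4-fold, 73% were recovered for the airway comparison (5.81% of calls false), 89% for the Ad-Cre pairs (8.72%) and 0% between tumoroid groups. Apart from the 200 changed genes, the simulated libraries shared 1 mean level per gene, without differences between populations. In the real airway comparison 58.4% of genes were called, so the simulated rates may not hold there. Depth limits only counting error. No pair of libraries held identical counts.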

Additional observations from a re-analysis of the deposited data

Results flagged for a closer look

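Among 28 sets of 4 to 10 libraries or pairs examined for a value that stands apart, 6 held one by Dixon's ratio of the gap to the range, and chance alone flags about 1 in 20. The bronchiolar BASC Ad-Cre culture stood above the 4 tracheal cultures in the airway group for Lif (log2 CPM 8.63, ratio 0.888), Cxcl15 (8.85, ratio 0.822), Cxcl2 (4.64, ratio 0.726) and Cxcl3 (3.23, ratio 0.723). Over the 4 pairs, the AT2 pair stood apart in the change of Cxcl2 with Ad-Cre (log2 -2.68, ratio 0.974), whereas the other 3 pairs lay between 0.06 and 0.13. Among the 6 alveolar tumoroids, mixed BASC-derived tumoroid 2 was low in Cxcl3 (log2 CPM 0.22, ratio 0.739), and its Cxcl15 of 884 CPM was also the lowest of the 6.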

How the results depend on the processing

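Il1a, Il1rn and Cxcl15 kept their direction and their call between airway and alveolar organoids in all 16 alternatives. The number of genes called there ranged from 8892 to 12150 on leaving out 1 library. Cxcl2 turned to -0.17 with 4 tracheal against 2 AT2 cultures and to between -0.19 and 1.18 on leaving out 1 library, Cxcl5 to 0.14 in the exact permutation test and to between -0.60 and 0.91, and Cxcl1 to between -1.37 and 0.08. The comparison of tracheal with AT2 cultures called Cxcl1 lower at -1.47. Il1b was called higher in airway cultures without a filter and with mixed BASCs added to the fit as their own group, at no more than 12 counts. For the Ad-Cre pairs DESeq2 called 5 genes and 0 were called on leaving out any pair. Without the replicate block 0 genes were called and Ccl20 turned to 0.43, and the block changed no call of a member. Leaving out 1 pair moved Ccl20 between -0.73 and 0.67, Cxcl1 between -0.70 and 0.36, Cxcl15 between -0.32 and 0.25, Cxcl2 between -0.80 and 0.09, Cxcl3 between -1.32 and 0.77, Cxcl5 between -0.41 and 0.64 and Lif between -0.26 and 0.38.

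For the distal minus tracheal response DESeq2 called 146 genes, no filter 2, and leaving out 1 pair 0 to 1562, and Il1a was -0.14 in DESeq2. The ranges over pairs left out were -4.02 to 0.19 for Ccl20, -2.82 to 0.51 for Cxcl1, -0.89 to 0.84 for Cxcl15, -3.60 to 1.22 for Cxcl3, -2.96 to 0.18 for Cxcl5, -1.50 to 1.13 for Il1a, -0.69 to 0.10 for Il1rn and -1.25 to 0.73 for Lif. In the bronchiolar comparison, 1818 genes were called with at least 10 counts in every library, where fewer genes could be called and Il1a was not among them, and 160 in the fit with pooled spread. Leaving out 1 alveolar tumoroid gave 3451 to 3795. Between AT2- and mixed BASC-derived tumoroids DESeq2 called 7 genes, and leaving out 1 library moved Ccl20 between -0.88 and 1.28, Cxcl1 between -1 and 0.81, Cxcl2 between -2.09 and 0.43, Cxcl5 between -2.64 and 1.54, Il1rn between -1.89 and 0.84 and Lif between -0.39 and 1.56. Where not stated, the cause was not tested. Depth limits Il1b, and Il1a in the alveolar tumoroids.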
